A study of Mus musculus with 10 samples.

Results

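The glucocorticoid receptor (GR) was listed at 10411 regions of high tag density in cells given lipopolysaccharide (LPS) together with dexamethasone (Dex). These regions overlapped no region of the list with Dex alone and no RelA region of 3 h or 8 h of LPS without Dex. They were chosen by the deposited lists themselves. A region of the GR list with LPS and Dex entered when its highest tag density was 10 or more and when it shared no base with any region of the GR list with Dex, of the RelA lists at 3 h and 8 h of LPS without Dex, or of the input list. They made up 63.6% (Wilson 95% interval 62.9 to 64.4) of the 16366 high-density regions of that list outside input, and 10411 of its 51639 regions in all. The 10 lists of the study together held 115077 regions. They are called gained regions without RelA here, where gained means listed with LPS and Dex and not with Dex.

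All libraries came from macrophages grown out of the bone marrow of C57BL/6J mice, with no genetic change named in the labels and no age, sex or pooling of animals given. Chromatin immunoprecipitation with sequencing was done for GR in 2 libraries, 1 from cells with Dex and 1 from cells with LPS and Dex, after fixation with disuccinimidyl glutarate and formaldehyde. For RelA it was done in 7 libraries after formaldehyde alone: at 0, 3 and 8 h of LPS without Dex, at the same hours with Dex given 3 h before LPS, and at 8 h of LPS with late Dex. Input DNA of untreated cells, labelled as the control of the RelA libraries, made up the last one, and no input for GR was used here. Both GR libraries contain Dex, so GR without Dex was not measured, and the labels give no hours for them. Each condition had 1 library, so no spread between replicates is known, no test between conditions was made, and every interval below covers counting error only and treats regions as independent. Macrophage identity could not be checked against marker genes, since the lists hold no expression.

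GR is a nuclear receptor that sits in the cytoplasm until a glucocorticoid such as Dex binds it, then enters the nucleus and occupies chromatin, largely at enhancers that other factors have already opened. RelA is the activating subunit of NF-κB. It is held in the cytoplasm by inhibitor proteins and is released when LPS, a component of the bacterial cell wall, stimulates Toll-like receptor 4. GR is known to repress many inflammatory genes of macrophages, and contacts with RelA on chromatin are among the mechanisms described for this repression. LPS also brings other factors to macrophage enhancers. Such factors were not measured here.

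Most of the high-density GR regions with both agents were gained, and most of the gained ones met no listed RelA region. Of the 16366, 12798 (78.2%) met no region with Dex and 3266 (20.0%) met RelA at 3 h or 8 h. The gained regions divided into 2387 with RelA and 10411 without it, so 81.4% (80.7 to 82.0) of them had none. A further 2689 regions were shared with the Dex list and lacked RelA, and 879 were shared and had RelA. These shares result from the selection and are given as a description.

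The lists differ in length and in the densities they hold, which bears on how absence from a list can be read. The Dex list had 55196 regions, with a lowest tag density of 0.519, a 5th percentile of 1.79 and a median of 2.99. Of these, 4018 reached a density of 10. The list with LPS and Dex had 51639 regions, with 0.668, 2.00 and 4.01 for the same measures, and 16612 reached 10. With 1 library each, an effect of LPS on this number cannot be told apart from a difference in depth or scale. The RelA list of 3 h had 5017 regions, with a lowest density of 0.815, a 5th percentile of 10.2 and a median of 18.5, and 4791 of them reached 10. The RelA list of 8 h had 1890 regions, with 4.16, 14.9 and 25.5 for the same measures. Low densities thus occur in each of these lists but make up most of both GR lists and little of the RelA lists. The RelA lists of 3 h and 8 h also came from cells without Dex, fixed with formaldehyde alone. RelA was thus not measured under the fixation of the GR libraries. Without RelA here means only not listed at 3 h or 8 h of LPS without Dex. Tag densities are on the deposited scale, and whether this scale is the same in each library is not stated in the sources used here.

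The gained regions without RelA had a lower median density, score and width than the other classes of high-density regions. Their highest tag density had a median of 18.8, with quartiles of 14.8 and 25.5, a 5th percentile of 11.4 and a 95th percentile of 42.9. The median was 27.3 in gained regions with RelA, 30.7 in shared regions without RelA and 63.1 in shared regions with RelA. Of the 10411, 4620 reached a density of 20, 1679 reached 30, 290 reached 50 and 12 reached 100. The authors' score, a z-score per region, had a median of 15.5 (quartiles 12.1 and 22.0), against 23.7, 32.2 and 58.2 in the same order of the other classes. Median width was 535 bp (449 and 612), against 635, 658 and 794 bp. The selection used density and absence from lists, and how far this accounts for the differences was not tested. Width differed less at like density. Among regions of density 20 to 30 the median widths were 580 bp for the gained regions without RelA, 610 bp for the gained ones with RelA, 612 bp for the shared ones without RelA and 662 bp for the shared ones with RelA.

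The share of such regions was highest between densities of 10 and 20 and fell steeply above. Below the bound, from 5 to 10, regions that met the other conditions were 50.7% (48.9 to 52.6) of the list outside input. Gained regions without RelA made up 79.5% of the regions of density 10 to 15 (78.2 to 80.8) and 80.0% from 15 to 20 (78.7 to 81.3). They made up 68.9% from 20 to 30, 46.4% from 30 to 50 and 19.2% from 50 to 100 (17.3 to 21.4). Of the 402 regions of 100 or more they were 12, or 2.99% (1.72 to 5.14). Both parts of the definition changed along this scale. The share of gained regions was 52.3% at 5 to 10, 87.2% at 10 to 15 and 90.7% at 15 to 20, and fell to 11.9% at 100 or more. Among the gained regions, the share with RelA rose from 8.86% (7.92 to 9.91) at 10 to 15 to 75% (61.2 to 85.1) at 100 or more. RelA was also listed more often at denser shared regions, from 3.06% to 58.2% over the same ends. In each of the 6 density intervals from 10 upward this share was lower at shared than at gained regions. At 100 or more it was 58.2% (53.0 to 63.2) against 75% (61.2 to 85.1). Density, the Dex list and the RelA lists were used by the selection, so these shares are a description and not a test.

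**Figure D1:**
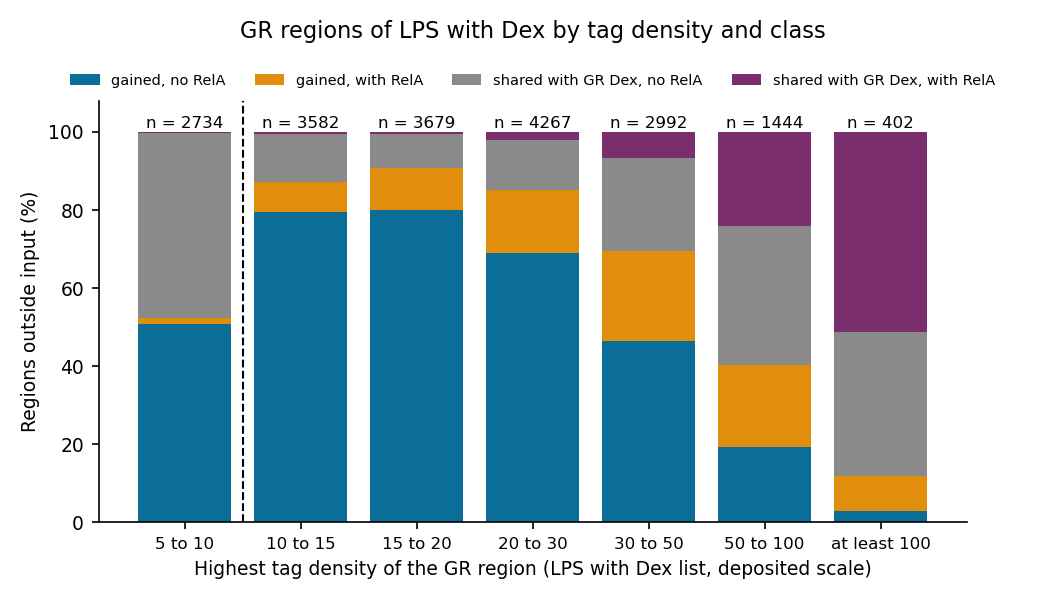
Bars show, for each interval of highest tag density on the x axis, the percentage of GR regions of LPS with Dex outside input that fall in each of 4 classes; n is the number of regions and the dashed line marks the bound of 10. Gained regions without RelA fall from 79.5% at 10 to 15 to 2.99% at 100 or more, while the classes with RelA grow.

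The bound of 10 was set by the selection. Just inside it, the first in genome order of several regions tied at a density of 10.02 lay at chr1:58663615-58664203 (score 29.9), chr1:59607059-59607420 (10.9) and chr1:123403466-123403873 (16.5). Just outside were chr1:89637384-89637635 with a density of 9.99 (score 9.66), chr15:97919728-97920174 with 9.85 (11.4) and chr12:85344761-85345164 with 9.78 (12.0). Between 5 and 10 a further 1387 regions met the other conditions, and below 5 there were 17918.

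The densest gained regions without RelA differed widely in their distance to RelA. First was chr16:76086080-76086918, with a density of 168 and a score of 132. Its nearest RelA region was 123929 bp away and its nearest Dex region 69367 bp away. Next came chr7:82614860-82615817 with a density of 133, 29920 bp from RelA, and chr1:80490106-80490999 with 126. The latter had near neighbours in both lists, a RelA region of 3 h at 1703 bp and a Dex region at 1824 bp. At chr8:89379956-89380714 the density was 117 and RelA was 21425 bp away. At chr10:18847511-18848278 and chr6:35182664-35183636 it was 116, with RelA at 28380 and 310756 bp. The region of chromosome 6 was the most isolated of the leading 10: its nearest Dex region was 215664 bp away and the nearest high-density GR region 143377 bp.

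The other leading regions were closer to RelA or to each other. At chr4:3397558-3398338 the density was 113, and RelA lay at 2571 bp at 3 h and 2529 bp at 8 h. At chr1:108238076-108239268 it was 110, with RelA of 3 h at 8401 bp and of 8 h at 476935 bp. The regions chr9:51910365-51911109 (111) and chr9:51913371-51914071 (107.96) stood 2262 bp apart. Over the leading 10, the gap to RelA ran from 1703 to 310756 bp with a median of 29150 bp. Within the leading 100, all of density 64.1 or more, 21 were within 10 kb of RelA.

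Ranking by score brought in other regions. Highest was chr9:119174714-119175569, with a score of 171 at a density of 78.3 and RelA 73186 bp away. Next among those not in the leading 10 by density came chr9:115468765-115469831 (score 102, density 58.3), chrX:84975928-84976586 (94.7 and 11.4), chr2:156047641-156048439 (91.3 and 96.5) and chr16:70329416-70330249 (84.8 and 92.0). The region of chromosome X had its high score at a density barely above the bound. The reverse held at chr11:3005324-3005842, a region singled out after its values were seen, with a density of 91.5 and a score of only 14.2. The ratio of score to density was 0.842 at the median of the gained regions without RelA, with a 5th percentile of 0.612 and a 95th percentile of 1.21.

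Absence of listed RelA at these regions did not mean absence of listed RelA nearby. The median gap to the nearest RelA region of 3 h or 8 h was 68001 bp (quartiles 17486.5 and 211741 bp, interval of the median 65088 to 71214). RelA lay within 1 kb of 2.95% (2.64 to 3.29), within 10 kb of 17.7% (16.99 to 18.5), within 50 kb of 43.1% (42.2 to 44.1) and within 100 kb of 58.5% (57.6 to 59.5). Within 1 Mb it was 96.3%. To RelA of 3 h the median gap was 74083 bp and to RelA of 8 h, the shorter list, 265139 bp. Only gaps above or at 0 can occur here, since overlapping regions were left out, so the values are read against other GR regions selected in the same way.

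Compared with shared regions without RelA, the gained ones lay closer to RelA. The shared regions had a median gap of 99946 bp (interval 91907 to 106535), and 13.8% (12.6 to 15.1) lay within 10 kb. On the autosomes alone the medians were 66578.5 and 80957 bp, and the shares 17.9% (17.2 to 18.6) and 15.1% (13.7 to 16.5), so the classes differed less there, and the intervals of the shares did not overlap. Lists of weaker regions were much farther away. Gained regions without RelA of density 5 to 10 had a median gap of 307480 bp and 5.77% within 10 kb. Those below 5 had 591755 bp and 1.46% (1.29 to 1.64). These weaker sets differed in more than density. Their median widths were 354 and 284 bp, against 535 bp, and their median ratios of score to density 2.01 and 4.93, against 0.842.

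**Figure D2:**
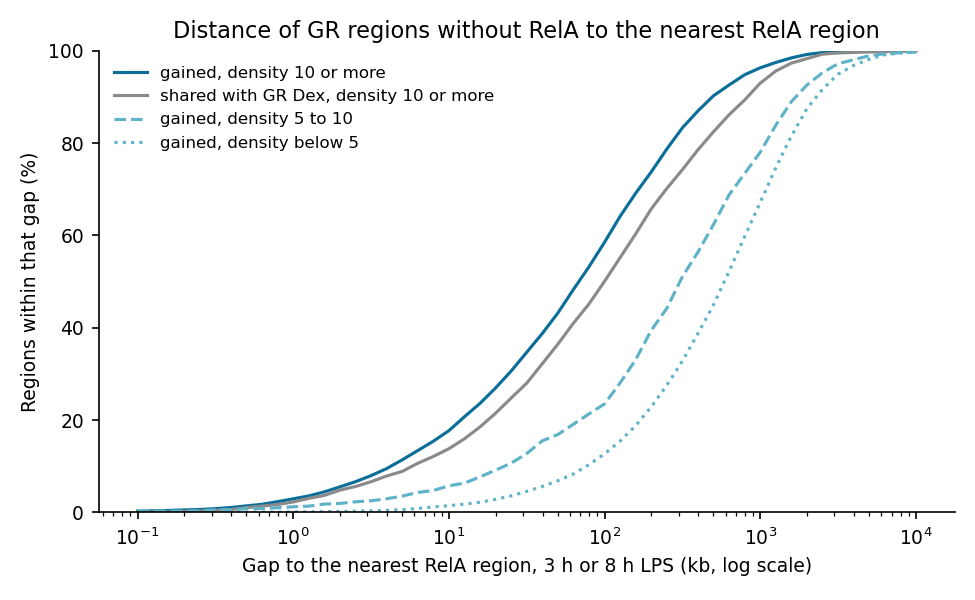
Each curve gives the percentage of GR regions (y axis) whose gap to the nearest RelA region of 3 h or 8 h LPS is at most the value on the x axis (kb, log scale). Gained regions of density 10 or more reach 50% at the smallest gap, with a median of 68001 bp, and those of density below 5 at the largest, with a median of 591755 bp.

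Up to a density of 100 the gap to RelA shrank as GR density rose, in both classes. For gained regions without RelA the median was 103428 bp at a density of 10 to 15, 70774 bp at 15 to 20, 53001 bp at 20 to 30, 49101 bp at 30 to 50, 41816 bp at 50 to 100 and 29150 bp for the 12 regions of 100 or more. Shared regions without RelA went from 278160 bp at 10 to 15 over 113226 bp at 20 to 30 to 46908 bp at 50 to 100, and stood at 64540.5 bp from 100 on. In each density interval the gained regions had the smaller median. At 10 to 15 the intervals of the medians were 97816 to 112438 bp against 211817 to 346133 bp. They overlapped at 50 to 100, 31256 to 52355 bp against 40360 to 55903 bp. On the autosomes alone the medians at 10 to 15 were 101388 and 160830 bp, and the intervals overlapped at 30 to 50 too, 43730 to 55800 bp against 52637 to 71940 bp.

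**Figure D3:**
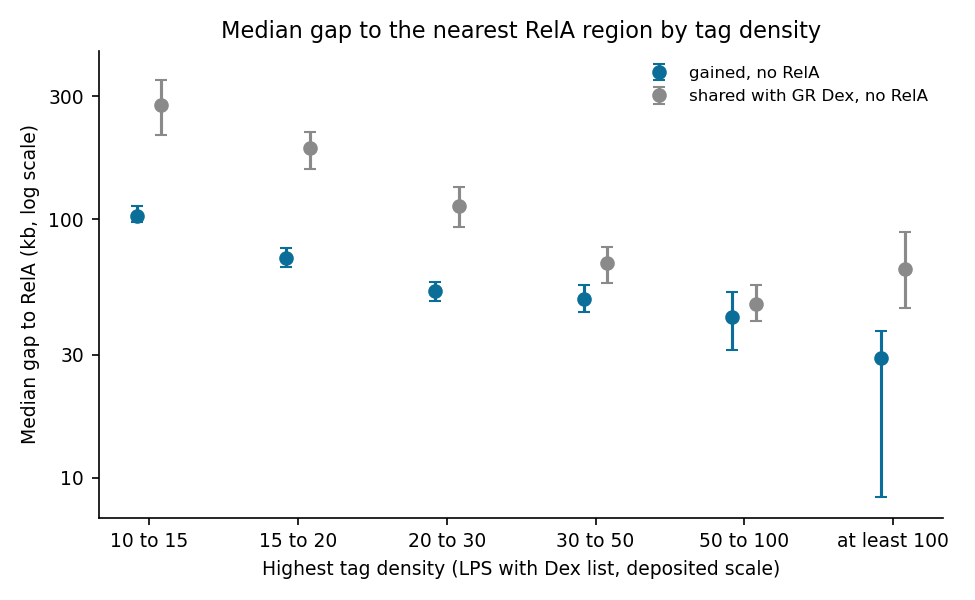
Points are the median gap to the nearest RelA region (kb, log scale) in each interval of highest tag density, with bars for the exact binomial 95% interval of the median. The gained regions without RelA lie below the shared ones in each interval, from 103428 against 278160 bp at 10 to 15, and the bars overlap at 50 to 100.

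Some gained regions missed RelA narrowly. RelA stood within 500 bp of 148 of the 10411 (1.42%, 1.21 to 1.67), and a Dex region within 500 bp of 147 (1.41%), and 268 had the one or the other. The nearest case, chr8:11452035-11452373 (density 12.0), abutted a RelA region of 8 h with no base between them. A RelA region of 3 h began 1 bp from chr4:125937287-125937674 (12.9), 2 bp from chr9:123437931-123438379 (17.7), 5 bp from chr12:120551785-120552264 (16.8) and 10 bp from chr3:27588918-27589575 (33.4). All 5 met the rule of no shared base. The farthest were on chromosome 14. chr14:87590433-87590998 (density 25.6) was 8399805 bp from any RelA region of 3 h or 8 h, and chr14:87444059-87444583 (16.2) was 8253431 bp away. The densest of the farthest 5, chr14:84853747-84854423 with 48.1, stood 5663119 bp away and 1744211 bp from the next high-density GR region. The others were chr14:97427666-97428336 (25.4) and chr14:97471376-97471961 (19.4), at 5348552 and 5304927 bp.

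Most RelA regions next to gained regions without RelA met strong GR, as did most RelA regions in general. The 1844 gained regions within 10 kb of RelA had 1457 listed RelA regions as their nearest, 1262 of them in the 3 h list. Regions of 3 h and 8 h were counted separately, and those meeting input were kept. Of the 1457, 73.6% (71.3 to 75.8) met a high-density GR region. For the RelA regions nearest to shared regions without RelA the share was 76.1% (71.2 to 80.3), an overlapping interval. Over all RelA regions outside input, 3035 of 4972 at 3 h met one, a lower share than both. At 8 h it was 1596 of 1878, a higher share. Seen from RelA at 3 h, 40.1% (38.3 to 41.8) of the 3035 regions with high-density GR had a gained region without RelA within 10 kb, against 24.5% (22.7 to 26.5) of the 1937 without such GR. At 8 h the shares were 41.5% (39.1 to 43.9) of 1596 and 24.1% (19.5 to 29.4) of 282.

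RelA lists that the selection did not use hardly met these regions. They are short. The list at 0 h has 83 regions, those with Dex given first have 75, 84 and 78, and the one with late Dex has 250. None of the 10411 was called at 0 h of LPS, where 0.232% of all 16366 high-density regions were. None was called with Dex pretreatment at 0, 3 or 8 h of LPS, where 0.177%, 0.0855% and 0.0306% of the 16366 were. With late Dex 2 were called (0.0192%, 0.00527 to 0.0700), against 1.30% of the 16366 and 5.82% (4.95 to 6.84) of the gained regions with RelA. They were made with the same RelA antibody as the lists of 3 h and 8 h, so they are not independent of the selection. Among the 2689 shared regions without RelA, the late Dex list met 1 (0.0372%, 0.00657 to 0.210), an interval that overlaps that of the gained ones. The list at 0 h met 2 of them (0.0744%, 0.0204 to 0.271), and those with Dex given first met 0, 3 and 1 at 0, 3 and 8 h of LPS. For the 3 the interval was 0.0380 to 0.328%, and for the gained regions, of which none was met, its upper bound was 0.0369%. With so few regions met, in lists tied to the selection, no difference between the classes is drawn from this.

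The 2 exceptions with late Dex had GR densities above the upper quartile of 25.5. At chr13:43635334-43636023 GR had a density of 36.8 and a score of 29.5. RelA with late Dex was listed within it, from 43635579 to 43635898, with a density of 20.4 and a score of 10.1, while RelA without Dex was 24668 bp away at 3 h and 234534 bp at 8 h. At chr8:13036892-13037521 GR had a density of 33.6 and a score of 32.7. There the late Dex region had a density of 17.97 and a score of 9.85, close to the lowest score of that list (9.849), and RelA without Dex lay at 1317 bp at 3 h and 8721 bp at 8 h.

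Gaps to GR with Dex were measured too, and the length of that list, 55196 regions, bears on them. The median gap from a gained region without RelA to the nearest Dex region of any density was 34237 bp (quartiles 11574 and 78967), and 22.2% (21.4 to 23.0) had one within 10 kb. Gained regions with RelA had a median of 30519 bp and 23.5% (21.9 to 25.3), an overlapping interval. To the nearest Dex region of density 10 or more the median was 119843 bp, and 13.0% (12.3 to 13.6) had one within 10 kb. Weak gained regions differed from this. Those below 5 had a median gap to the Dex list of 1422 bp, and 28.2% had a Dex region within 500 bp without overlap, against 1.41% of those at 10 or more.

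Gained regions without RelA frequently stood near other strong GR regions. Of the 10411, 45.9% (45.0 to 46.9) had another high-density region of any class within 10 kb, and the median gap was 11977 bp. This was less often than in the other classes: 58.5% (56.5 to 60.5) of the gained regions with RelA, 52.4% (50.5 to 54.3) of the shared ones without RelA and 68.7% (65.6 to 71.7) of the shared ones with RelA. The order between the classes without RelA depended on density. From 10 to 15 the shares were 37.8% for gained and 51.0% for shared regions, and from 20 to 30 they were 50.1% and 48.2%. The neighbour was most often of the same kind, the largest class: 34.3% (33.4 to 35.2) had another gained region without RelA within 10 kb, 9.97% a gained one with RelA, 9.14% a shared one without RelA and 5.04% a shared one with RelA.

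Chained at gaps of up to 10 kb, the 10411 regions formed 8382 groups, of which 6841 were single regions. The other 1541 groups held 3570 regions. Of these, 373 groups had 3 or more, 18 had 5 or more, and the largest had 7. The first of the largest lay at chr11:8474447-8510302, with 7 gained regions of density 13.6 to 28.8. RelA regions of 3 h sat between them at chr11:8479824-8480104 and chr11:8489332-8490012, each with a gained GR region of its own (density 20.0 and 31.9), and the second also had RelA at 8 h. No Dex region came nearer than 98780 bp to any of the 7. The second lay at chr4:63005190-63027840, with 7 regions of density 10.7 to 45.7. It held 1 shared region, where GR had a density of 14.3 with both agents and 13.6 with Dex, and the nearest RelA was 32632 bp away. The third, chr16:75909306-75934114, had 6 regions of density 14.2 to 74.8 and nothing else of high density between them. Its nearest RelA region, at 27036 bp, was chr16:75961150-75962151, which carried GR with both agents (114) and with Dex (27.5). The densest gained region without RelA of all, described above, was on the same chromosome.

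**Figure D4:**
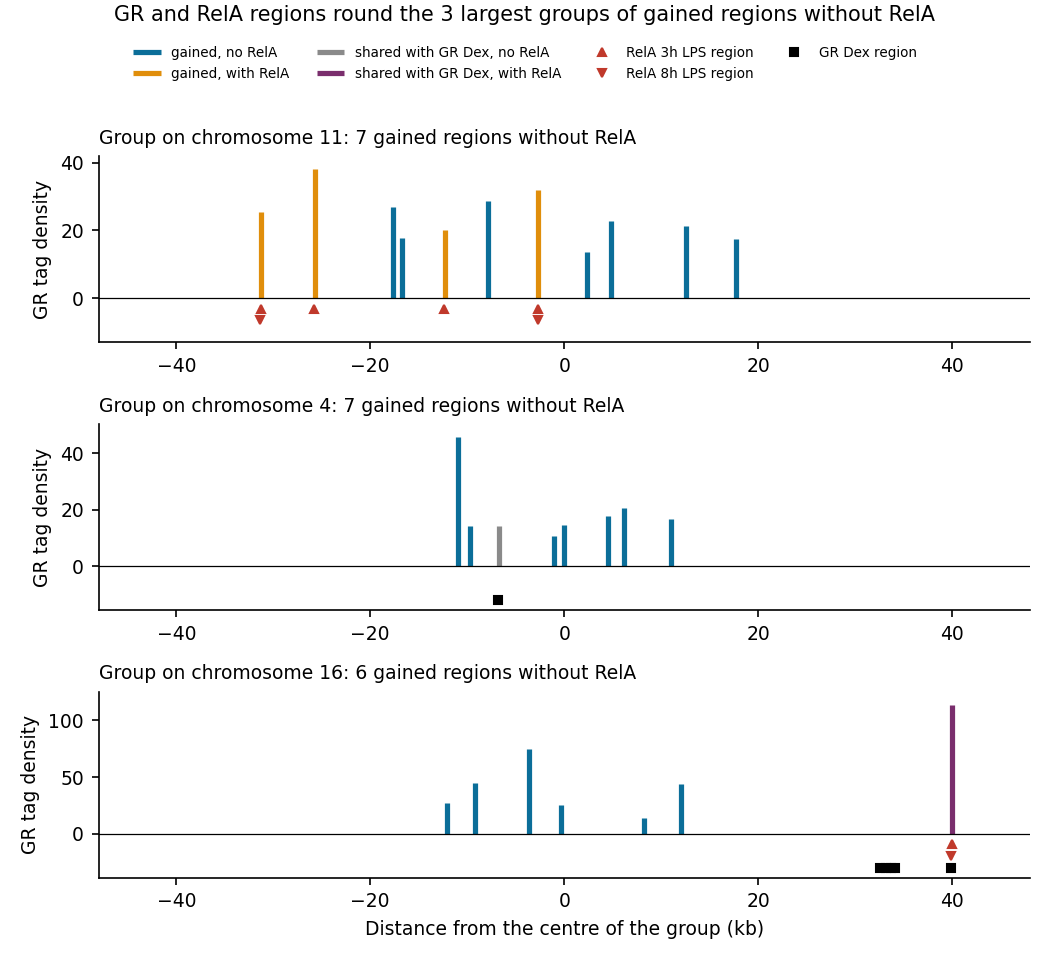
Vertical lines are high-density GR regions of LPS with Dex within 30 kb of the 3 largest groups, at their distance from the centre of the group (x axis, kb) and with their highest tag density (y axis, deposited scale); colours give the class, and marks below the axis show regions of the RelA 3 h, RelA 8 h and GR Dex lists. On chromosome 11 RelA lies at 2 places within the group and at 2 before it; RelA is absent in the window on chromosome 4, and lies to one side on chromosome 16.

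The autosomes held the gained regions without RelA in even measure. On each of the 19 autosomes they made up 60.9 to 67.3% of the high-density regions, and their median density ran from 17.2 to 20.3. Chromosome 2 had the most, 772. Chromosome X differed. It held 260 of the 10411, or 2.497% (2.21 to 2.82), against 273 of the 2689 shared regions without RelA, or 10.2% (9.07 to 11.4), so the gained class was 43.5% of the high-density regions there. On X the gained regions without RelA had a median density of 14.0, against 18.8 elsewhere, and a ratio of score to density of 1.09 against 0.837. Density was lower on X in each of the other classes too. The lists themselves differed there. Chromosome X held 5179 regions of the Dex list, the most of any chromosome, against 4420 on chromosome 1. Of the RelA list of 3 h it held 126, against 350 on chromosome 1. How far this accounts for the shares on X was not tested. Chromosome Y held 1 of them.

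**Figure D5:**
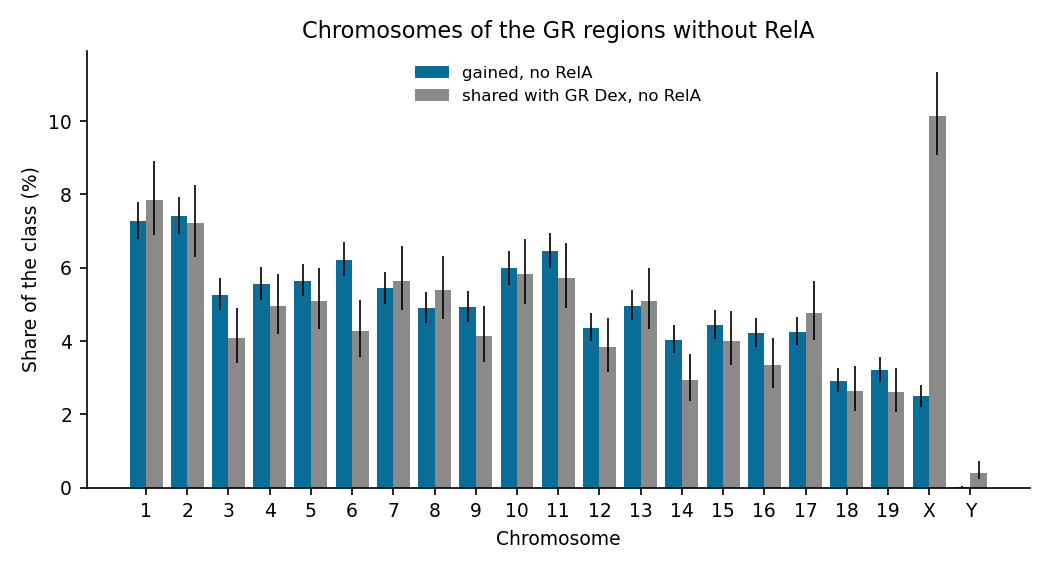
Bars give the percentage of each class (y axis) on each chromosome (x axis), with Wilson 95% intervals, for gained and for shared GR regions without RelA. Chromosome X holds 2.497% of the gained and 10.2% of the shared regions, and among the autosomes the intervals are apart on chromosomes 6 and 14. Percentages are of the whole class with chromosome X, which lowers the autosomal shares more for the shared class. Intervals over autosomes alone were not computed.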

How the data were processed

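Each of the 10 libraries came as 1 list of enriched regions on mm9. Reads were handled with CASAVA, per the submitters' processing notes, and the caller's version, threshold and duplicate filter are not given in the sources used here. Per the file headers, each region carries a highest and a mean tag density (a signal), a score (a z-score) and a p-value from the authors' caller. The p-value was not used further. How densities were scaled between libraries is not stated, and the sequencing depth is unknown. Values of the lists are the authors' and served to filter, rank and describe regions.

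From these, overlap by 1 bp or more, gaps between region edges, and groups chained at 10 kb were computed with Python 3.11.15, numpy 2.4.6, pandas 2.3.3 and scipy 1.17.1. The overlap and distance steps were tested on simulated data. Shares have Wilson 95% intervals and medians exact order-statistic intervals. With 1 library a condition there was no test between conditions. Regions were named by rule: the 10 of highest density, the 5 of highest score outside these, the 5 nearest to and the 5 farthest from RelA, the 3 largest groups, 3 on each side of the bound of 10, and those met by RelA lists outside the selection. The selection and these rules were chosen with earlier results of these data known. Genes, motifs and sequences at the regions were not analysed here, since the reference tables used another build than mm9. Alternatives changed the density bound, the overlap, the score, the lists counted, merging and the measure of distance, and 2 more were added after seeing the data.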

Additional observations from a re-analysis of the deposited data

How the results depend on the processing

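Over 10 alternative settings and 1 other measure of distance, 41 of 62 recomputed values moved by less than their counting interval, or for numbers of regions by less than 1.5 times, and 21 moved by more. With a density bound of 20 the number of regions was 4620, the median gap to RelA 51003 bp, the share within 10 kb of RelA 20.45%, the median width 611 bp and the share with another such region within 10 kb 24.31%. With a bound of 5 the last 4 were 81856 bp, 16.31%, 519 bp and 33.06%. Where sharing needed 50% of both regions they were 63124 bp, 20.73%, 541 bp and 36.45%. Where regions within 500 bp counted as shared, the shares near RelA and near another such region were 16.49% and 33.31%, and with regions within 500 bp merged 16.55% and 30.52%. The higher-scoring 50% of the list gave 5209 regions, a width of 610 bp and 22.29% near another such region. With none of the 7 RelA lists allowed, the share called with late Dex was 0 by construction. Stricter bounds leave fewer regions. Dropping regions within 500 bp of RelA lowers the share near RelA in part by construction. Needing 50% of both regions admits regions that partly overlap RelA, at a gap of 0. This raises that share and shortens the median gap, again in part by construction. The cause of the other shifts was not tested. Keeping input regions, measuring between centres and, as added after seeing the data, counting Dex regions only from a density of 10 or leaving out chromosomes X and Y moved none of the values beyond these limits. No library could be left out, since each condition had 1, and no paired analysis was possible because no group has a second replicate. Depth is unknown, so a region missing from a list may lie under its threshold.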

Other observations

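Some groups of gained regions without RelA stood farther from RelA than the median gap of 68001 bp. The 5 regions grouped at chr17:7007993-7032043 had a median density of 33.9, with RelA no nearer than 478385 bp and a Dex region no nearer than 49533 bp. The 5 at chr5:120955781-120968114 had a median density of 25.6, with RelA at 125735 bp and Dex at 309009 bp. That gap to RelA was below the upper quartile of the class, 211741 bp. In contrast, the 6 at chr17:33688913-33703552 came within 181 bp of RelA and 187 bp of a Dex region.

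The shape of the regions, taken as mean over highest tag density, varied little between classes. Its median was 0.400 in gained regions without RelA, 0.391 in those with RelA, 0.391 in shared regions without RelA and 0.389 in shared regions with RelA. Within the class, 695 regions (6.68%) had another region of the same list within 500 bp, and for 229 of the 10411 (2.20%) such a neighbour met RelA or a Dex region. Chromosome X regions lay farther from RelA than the class as a whole, with a median gap of 137090.5 bp, on a chromosome with only 126 RelA regions of 3 h.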
